A study of Mus musculus with 12 samples.

Results

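The alpha and beta crystallins were followed as 8 genes in the injured mouse retina, Cryaa, Cryab, Cryba1, Cryba2, Cryba4, Crybb1, Crybb2 and Crybb3. They were taken by symbol from the 25655 genes of the deposited count tables, and all 8 were found. They had been picked because earlier results of the same counts showed them changed, so their values are given as a description, and calls of the fit across all genes stand only beside the share of all genes called. Whole retinas were collected 2 days after optic nerve crush (ONC) from C57BL/6J mice 8 to 10 weeks old. The nerve of the left eye was crushed in every group, and no uninjured retina is among the samples. After ONC the eye received a single intravitreal injection of PBS as control, fluvastatin (a statin, which inhibits HMG-CoA reductase), MBV (matrix-bound nanovesicles, here from porcine urinary bladder) or MBV with fluvastatin. Each group had 3 samples, and the sources used here do not say whether a sample is 1 animal, so the spread given is the spread between samples. Counts with a library name covered PBS, fluvastatin and MBV, 9 libraries in all, and the combined treatment was not analysed here.

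Crystallins are the abundant water-soluble proteins of the lens. Alpha A and alpha B crystallin, from Cryaa and Cryab, belong to the small heat shock proteins and act as chaperones that hold unfolding proteins in solution. The beta crystallins share with the gamma crystallins a fold of repeated Greek key motifs, form dimers and larger assemblies, and are divided into acidic (A) and basic (B) members. Cryaa, Cryab, Cryba1 and Crybb2 have been described outside the lens, among other places in the retina, where they are often reported to respond to injury or light. Cryba4, Crybb1 and Crybb3 are known chiefly from lens fibre cells. Cryba2 was left unsorted.

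In these retinas Cryab was well detected in all 3 groups and was 1.5-fold higher with MBV than with PBS. The other 7 genes were close to the limit of detection with PBS and lay 10.4-fold to 52.3-fold higher with MBV, as ratios of mean CPM (counts scaled to a common library size with edgeR's TMM factors). With fluvastatin they were high in replicate 2 alone. Within the MBV group, replicate 1 was 1.57 to 2.82 times replicate 2 for the 7 genes and 15.9 to 20.2 times for Crygb, Crygc, Crygd and Cryge, gamma crystallins.

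The depth was 21349516 to 30992040 counts per library. PBS and fluvastatin libraries both carry library numbers 1 to 3, so they were numbered in different sets. MBV carries 4 to 6, and the order of the samples, not the numbers, places it with fluvastatin. Set and treatment then cannot be told apart in either comparison with PBS. None of the 8 retina markers was at 0 in any library. The summed level of 6 pigment cell markers was 98.6 to 146 CPM in the PBS libraries, 36.0 to 44.8 after fluvastatin and 27.1 to 50.3 after MBV, and MBV replicate 3 stood apart with 50.6 CPM over 6 monocyte and neutrophil markers, against 4.50 to 8.40 with PBS. Most of the sum in MBV replicate 3 was Cd74, at 36.3 CPM, and Ccr2, at 9.5. S100a8, S100a9 and Cxcr2 were at 0.813, 0.684 and 0.385 CPM there.

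The genes lie on 5 chromosomes (GRCm39, positions of the files). Cryba4 (chr5:112394359-112400384, minus strand) and Crybb1 (chr5:112403681-112417451, plus strand) stand head to head, 3296 bases apart. Crybb2 (chr5:113206124-113217983) and Crybb3 (chr5:113223705-113229450) follow each other on the minus strand of the same chromosome, 5721 bases apart. Cryaa is at chr17:31896781-31900707 and Cryab at chr9:50662625-50667936, both on the plus strand. Cryba1 is at chr11:77609441-77616109 and Cryba2 at chr1:74929093-74932302, both on the minus strand. A pair of these genes share bases with a measured gene on the other strand, and the sources used here do not say whether counting used strand: all of Cryba1 lies within Nufip2, and Cryab overlaps Hspb2, so reads there cannot be told apart. Nufip2 was level, at 206 to 230 CPM in every library, and Hspb2 had 1 to 5 counts.

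Upstream sequences are shown for Cryba1, for the head-to-head pair Cryba4 and Crybb1, and for Crybb2, because these genes were high in the same libraries. They are the 250 bases before the start in RefSeq (table build GRCm38.p6), each found once in GRCm39, where bases inside the files' gene model were left off. Capitals mark TGCTGA or its reverse complement, the half-site of the recognition element of Maf proteins, transcription factors that act in the lens among other tissues. Sequences run 5′ to 3′ on the gene's strand. Positions are counted back from the RefSeq start, which for Crybb1 lies 5 bases past the end of the sequence shown.
Cryba1 (chr11:77616120-77616369, - strand): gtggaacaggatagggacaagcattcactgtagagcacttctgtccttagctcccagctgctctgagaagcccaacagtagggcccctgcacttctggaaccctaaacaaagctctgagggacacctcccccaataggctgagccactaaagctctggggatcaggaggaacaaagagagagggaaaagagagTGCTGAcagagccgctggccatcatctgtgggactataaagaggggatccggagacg
Cryba4 (chr5:112400385-112400634, - strand): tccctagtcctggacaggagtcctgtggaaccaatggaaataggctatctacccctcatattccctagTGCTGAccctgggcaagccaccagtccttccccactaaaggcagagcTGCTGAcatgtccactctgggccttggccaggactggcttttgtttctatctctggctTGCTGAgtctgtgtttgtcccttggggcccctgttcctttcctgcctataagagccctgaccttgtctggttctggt
Crybb1 (chr5:112403436-112403680, + strand): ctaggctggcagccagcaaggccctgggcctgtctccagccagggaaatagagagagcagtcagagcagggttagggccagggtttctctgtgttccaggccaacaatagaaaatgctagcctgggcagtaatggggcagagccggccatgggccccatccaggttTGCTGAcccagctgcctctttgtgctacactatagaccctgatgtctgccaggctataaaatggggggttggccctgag
Crybb2 (chr5:113217984-113218233, - strand): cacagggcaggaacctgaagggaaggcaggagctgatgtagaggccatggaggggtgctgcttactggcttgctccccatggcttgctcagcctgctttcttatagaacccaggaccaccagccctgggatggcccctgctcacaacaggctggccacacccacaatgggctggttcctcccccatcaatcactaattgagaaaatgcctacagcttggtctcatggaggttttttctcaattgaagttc
RefSeq promoters were matched for 7 of the 8 genes, all but Cryab. On either strand, TGCTGA occurred in the 250 bases of 6 of these 7, against 15.8% of 27025 promoters. Cryba4 held 3 copies, Cryaa, Cryba1, Cryba2, Crybb1 and Crybb3 held 1 each, and Crybb2 held none. In Cryba1 the copy ran from 57 to 52 bases before the start and in Crybb1 from 84 to 79, in both cases with a TATAAA box nearer the start. The copy of Cryaa, 108 to 103 bases before the RefSeq start, falls inside the longer gene model of the files. TATAAA occurred in 2 of the 7 promoters and in 13.0% of all. The core of the heat shock element, GAANNTTC, occurred in 0 of the 7 and in 6.78% of all. A match describes the letters and is not shown to be a bound site.

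Of the alpha crystallins, Cryaa had 70, 10 and 1 counts in PBS replicates 1 to 3, or 2.27, 0.341 and 0.0380 CPM. Fluvastatin replicates 1 to 3 had 0.577, 7.51 and 0.254 CPM. MBV replicates 1 to 3 had 55.1, 35.2 and 26.9 CPM. Every MBV library was above every PBS and fluvastatin library, and fluvastatin replicate 2 was above all PBS libraries while the other fluvastatin libraries lay within the PBS range. The means of the PBS, fluvastatin and MBV libraries were 0.885 ± 1.21, 2.78 ± 4.10 and 39.0 ± 14.5 CPM (SD, n = 3 each). The lowest MBV library was 11.8-fold above the highest PBS library, and the fitted log2 fold change of MBV against PBS was 5.38 ± 0.57 (SE). It was 7.58 without PBS replicate 1, which held most of the PBS counts.

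Cryab, the alpha crystallin that many tissues express, behaved differently from Cryaa. It had 21.8, 18.7 and 23.0 CPM in the PBS libraries and 21.2, 19.9 and 20.2 CPM in the fluvastatin libraries. The MBV libraries had 37.3, 30.1 and 28.2 CPM. PBS and fluvastatin overlapped, and all MBV libraries were higher than both. The means were 21.2 ± 2.20, 20.4 ± 0.681 and 31.9 ± 4.77 CPM (SD, n = 3 each), a ratio of 1.5 for MBV against PBS and 0.964 for fluvastatin against PBS. The difference of MBV from PBS, 10.7 CPM, was larger than the SD of either group, and the log2 fold change was 0.58 ± 0.11 (SE).

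Among the acidic beta crystallins, Cryba1, which makes the beta A3 and A1 proteins from a single transcript, had 0.682, 0.273 and 0.0760 CPM in the PBS libraries, from 21, 8 and 2 counts. The fluvastatin libraries had 0.577, 3.89 and 0.254 CPM, and the MBV libraries 29.1, 13.3 and 11.5 CPM. The MBV mean of 18 ± 9.70 CPM was 52.3 times the PBS mean of 0.344 ± 0.309 (SD, n = 3 each), and the log2 fold change was 5.63, or 6.6 without PBS replicate 1. Its lowest MBV library was 16.9-fold above its highest PBS library.

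Cryba2 had 0.357, 0.239 and 0.304 CPM in the PBS libraries, 0.0824, 1.23 and 0.170 in the fluvastatin libraries and 6.25, 2.79 and 2.99 in the MBV libraries. Its PBS level was steadier than that of Cryaa or Cryba1, with a mean of 0.300 ± 0.0594 CPM (SD, n = 3), and the MBV mean was 13.4 times as high. Cryba4 was counted 10, 1 and 2 times in the PBS libraries, 5, 16 and 2 in the fluvastatin libraries and 148, 42 and 50 in the MBV libraries. The groups of MBV and PBS did not overlap for either gene, and the lowest MBV library was 7.79-fold above the highest PBS library for Cryba2 and 5.90-fold for Cryba4.

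Among the basic beta crystallins, Crybb2, the most abundant beta crystallin of the mature lens, had 0.845, 0.614 and 0.0380 CPM in the PBS libraries. The fluvastatin libraries had 0.206, 4.71 and 0.0424 CPM, so fluvastatin replicate 2 was 22.9 times the next fluvastatin library. The MBV libraries had 34.8, 13.8 and 13.2 CPM. The MBV mean of 20.6 ± 12.3 CPM was 41.2 times the PBS mean of 0.499 ± 0.416 (SD, n = 3 each), and the lowest MBV library was 15.6-fold above the highest PBS library.

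Crybb1, a basic beta crystallin of lens fibre cells, had 0.520, 0.102 and 0.0760 CPM in the PBS libraries. Its fluvastatin libraries had 0.206, 1.01 and 0.170 CPM and its MBV libraries 7.78, 3.24 and 2.65. The MBV libraries did not overlap with the rest, and fluvastatin replicate 2 was the highest of its group. Crybb3, from the same subgroup, had 0.390, 0.375 and 0.342 CPM in the PBS libraries. Fluvastatin replicates had 0.494, 1.27 and 0.254 CPM and MBV replicates 6.29, 2.6 and 2.65. The MBV mean was 19.6 times the PBS mean for Crybb1 and 10.4 times for Crybb3. Crybb3 was the steadiest of the 7 low genes with PBS, at 0.369 ± 0.0246 CPM (SD, n = 3).

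**Figure D1:**
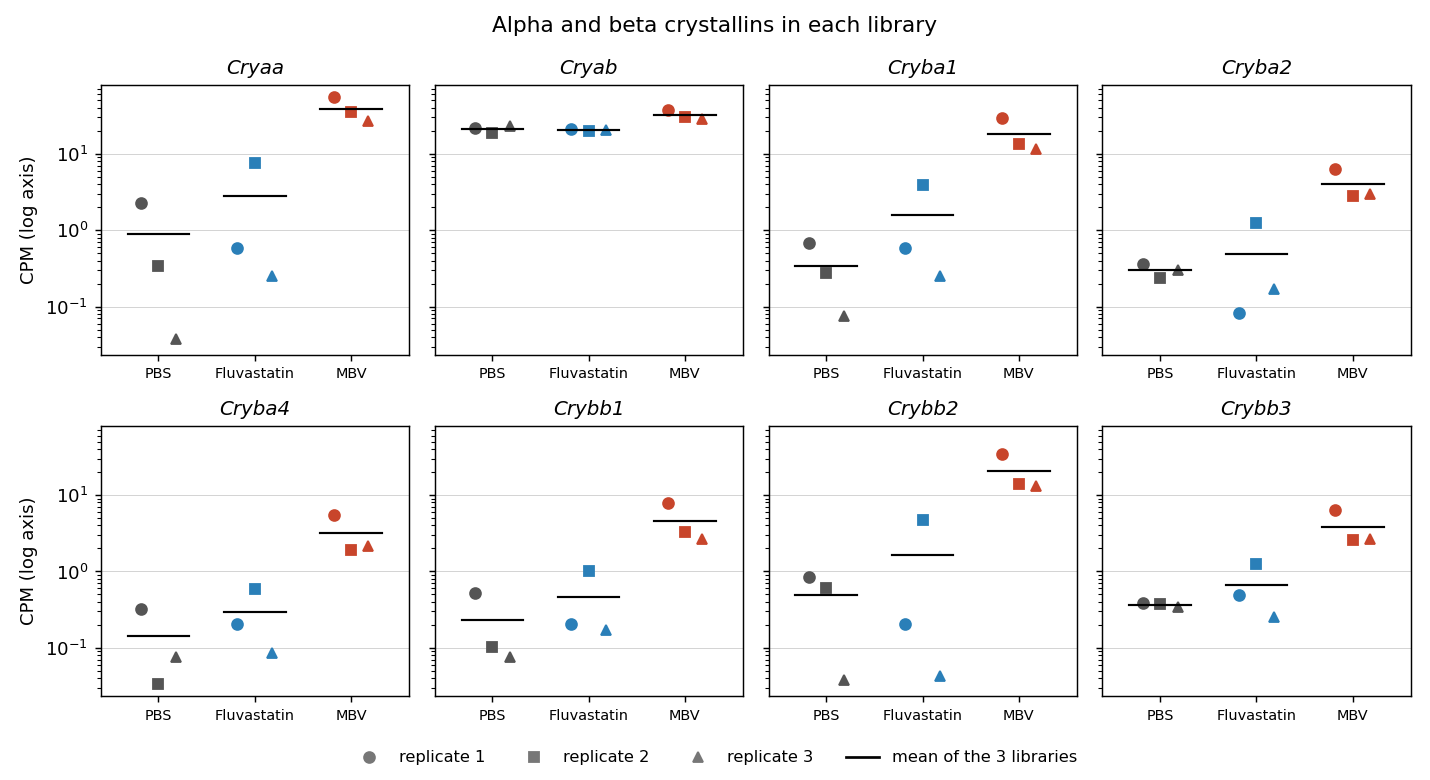
CPM of each of the 8 genes (log axis) in the 3 libraries of each group; symbols are replicates 1 to 3 and the line is the group mean. All MBV libraries lie above all PBS libraries for each gene, Cryab stays between 18.7 and 37.3 CPM, and fluvastatin replicate 2 is the highest of its group for every gene but Cryab.

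In edgeR's quasi-likelihood fit, 8 of the 8 genes were called higher with MBV than with PBS (Benjamini-Hochberg FDR under 0.05), where 12.0% of all genes tested were called higher. All 8 had MBV libraries above every PBS library, against 20.3% of genes tested. Because the genes had been picked on this contrast, nothing is read from these counts. The median log2 fold change was 4.29 for the 8 genes and 0.01 for all genes tested. The fold rests on low PBS counts: summed over the 3 PBS libraries, the 7 genes other than Cryab had 13 to 81 counts each, against 240 to 2905 with MBV. Without PBS replicate 1 the log2 fold change went from 4.36 to 5.75 for Cryba4, from 4.22 to 5.59 for Crybb1 and from 5.30 to 5.90 for Crybb2. In bulk tissue, fewer or more cells of a type and less or more RNA per cell cannot be told apart.

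Against fluvastatin, which sample order places in the library set of MBV, the MBV mean was 14.0 times as high for Cryaa, 1.56 for Cryab and 11.4 for Cryba1. It was 8.10 times as high for Cryba2, 10.6 for Cryba4, 9.88 for Crybb1, 12.4 for Crybb2 and 5.71 for Crybb3. The libraries did not overlap for any of the 8 genes, against 8.53% of genes tested that were higher in every MBV library. Against the highest fluvastatin library, which was replicate 1 for Cryab and replicate 2 for the rest, the lowest MBV library was 1.33-fold higher for Cryab and 2.05-fold (Crybb3) to 3.57-fold (Cryaa) higher for the others. The edgeR fit called 0 of the 8, at FDRs from 0.1 (Cryab) to 0.226 (Crybb2), where it called 0.0588% of all genes. DESeq2 called 4, Cryab, Cryba4, Crybb1 and Crybb3, where it called 0.38% of genes higher. Without MBV replicate 3 edgeR called all 8, beside 0.581% of genes called higher. The contrast on which the genes had been picked used these same MBV libraries, so nothing is read from these counts either.

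With fluvastatin the values of the group rested on 1 library. The edgeR fit called 0 of the 8 genes, where it called 19.6% of all genes tested. The smallest edgeR FDR of the 8 was 0.128, for Cryba1. DESeq2 gave an FDR only to Cryab, Cryba1 and Crybb2 and called none of these, so it could not call the others. The median log2 fold change was 0.98, against -0.01 for all genes. This value came from replicate 2, which exceeded every PBS library for 7 of the 8 genes, where 33.8% of genes tested did so. Replicate 1 did so for 1 gene, Crybb3 (32.8% of genes tested), and replicate 3 for 0 (33.2%). Without replicate 2 the log2 fold change was -1.11 for Cryaa, -1.23 for Cryba2, -0.03 for Cryba4, -0.34 for Crybb1 and -1.99 for Crybb2, against 1.63, 0.75, 1.00, 0.97 and 1.71 with it. For Cryab the value was -0.05 ± 0.08 (SE) with all libraries. Both comparisons with PBS share the same PBS libraries.

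The genes described outside the lens did not separate from the lens genes in direction. Against PBS the median log2 fold change with MBV was 5.34 for Cryaa, Cryab, Cryba1 and Crybb2, and 4.22 for Cryba4, Crybb1 and Crybb3. Values in the first set ran from 0.58 (Cryab) to 5.63 (Cryba1). The summed level of the second set was 1.23, 0.512 and 0.494 CPM in the PBS libraries, 0.906, 2.88 and 0.509 after fluvastatin and 19.5, 7.76 and 7.44 after MBV. The genes known chiefly from the lens were thus high in the same libraries as Cryaa, Cryba1 and Crybb2, namely the 3 MBV libraries and fluvastatin replicate 2.

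Levels between the genes were compared as mean CPM per kilobase of exon. With PBS, Cryab was at 4.81 ± 0.501 and the next gene, Cryaa, at 0.426 ± 0.584 (SD, n = 3). With MBV the order was Cryaa at 18.8 ± 6.98, Cryba1 at 11.2 ± 6.04, Crybb2 at 10.2 ± 6.10, Cryab at 7.24 ± 1.08, Cryba2 at 3.36 ± 1.63, Crybb3 at 1.65 ± 0.905, Crybb1 at 1.05 ± 0.649 and Cryba4 at 0.951 ± 0.589 (SD, n = 3 each). Cryaa, Cryba1 and Crybb2 thus passed Cryab with MBV, and the gap between Cryab and Cryba2 was the only one between neighbours that exceeded the SDs of the pair added together. With the length of the canonical transcript, Crybb2 stood above Cryba1 and Cryba4 above Crybb1.

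The makeup of the low genes was next taken as shares of their counts, without a correction for length. Of the summed counts of the 7 genes other than Cryab, 3959 in MBV replicate 1, 1594 in replicate 2 and 1449 in replicate 3, Cryaa took 38.1% (95% Wilson interval 36.6 to 39.6), 48.3% (45.9 to 50.8) and 43.3% (40.8 to 45.9). Cryba1 took 18.3% to 20.1% and Crybb2 18.9% to 24.0%. The minor genes took 3.83% to 4.83% (Cryba2), 2.63% to 3.74% (Cryba4), 4.28% to 5.38% (Crybb1) and 3.58% to 4.34% (Crybb3). The makeup was not the same in the MBV libraries. The share of Cryaa was higher in MBV replicate 2 than in replicate 1, and that of Crybb2 was lower, at 18.9% (17.1 to 20.9) against 24.0% (22.7 to 25.4), both with intervals that do not overlap, while the intervals of Cryba1 overlapped. In fluvastatin replicate 2, with 541 counts in all, Cryaa took 37.2% (33.2 to 41.3), Cryba1 19.2% and Crybb2 23.3%. Such intervals hold the counting error of reads and no other spread. Molecules were not tagged, so repeated reads of the same molecule were not set apart and the intervals may be too narrow. In PBS replicate 1, with 166 counts in all, Cryaa took 42.2% (34.9 to 49.8), Cryba1 12.7% (8.43 to 18.6), Crybb2 15.7% (10.9 to 22), Crybb1 9.64% (6.02 to 15.1) and Crybb3 7.23% (4.18 to 12.2). The other fluvastatin libraries and PBS replicates 2 and 3 had 25 to 58 counts in all, too few to give a makeup.

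The gamma crystallins, which share the fold of the beta crystallins, were looked at beside them. Of 8 gamma genes, 7 were called higher with MBV than with PBS, against 12.0% of genes tested, with a median log2 fold change of 5.45 (all genes, 0.01). This list and the lists below were also chosen with earlier results of these counts known, so their counts of called genes are a description. Crygn, expressed in the retina, was at 5, 3 and 4 counts in the PBS libraries and at 4, 5 and 0 in the MBV libraries, and did not pass the test. The count was 5 without MBV replicate 1, and 3 without PBS replicate 2. Against fluvastatin edgeR called 0 of the 8, at FDRs from 0.186 (Crygs) to 0.617 (Crygn), where it called 0.0588% of all genes. DESeq2 called 0 as well, but it gives no FDR to genes that its filter leaves out.

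Within the MBV group the gamma crystallins divided. Crygs, the gamma S crystallin that the lens makes throughout life, had 13.2, 4.48 and 5.26 CPM in MBV replicates 1 to 3, and replicate 1 was 2.95 times replicate 2 and 2.51 times replicate 3. That lies near the 7 genes, where replicate 1 was 1.57 times (Cryaa) to 2.82 times (Cryba4) replicate 2 and 2.05 times (Cryaa) to 2.93 times (Crybb1) replicate 3. Crygb, Crygc, Crygd and Cryge, from the gene cluster expressed in young lens fibres, were 15.9 to 20.2 times as high in replicate 1 as in replicate 2, and 6.13 to 11.2 times as high as in replicate 3. Cryga had 70, 1 and 10 counts and Crygf 212, 4 and 10. The gamma A to F genes are alike in sequence, so reads may be split between them, and their sum is given.

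Counts of gamma A to F made up 39.4% (95% Wilson interval 38.2 to 40.6) of the gamma A to F, alpha A and beta crystallin counts in MBV replicate 1. The share was 6.35% (5.28 to 7.60) in replicate 2 and 16.6% (15.0 to 18.5) in replicate 3. The intervals of the 3 libraries do not overlap. In fluvastatin replicate 2 the share was 24.7% (21.6 to 27.9) and in PBS replicate 1 it was 22.8% (17.7 to 28.8), so MBV replicates 2 and 3 held less gamma A to F per alpha and beta count than fluvastatin replicate 2, and MBV replicate 1 more. Crygs, set against the same 7 genes, took 8.36% (7.57 to 9.22), 5.79% (4.78 to 7.01) and 7.82% (6.6 to 9.26) in MBV replicates 1 to 3. Its intervals in MBV replicates 1 and 2 do not overlap either, though its range was narrower than that of gamma A to F. In fluvastatin replicate 2 it took 7.99% (6.06 to 10.5).

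**Figure D2:**
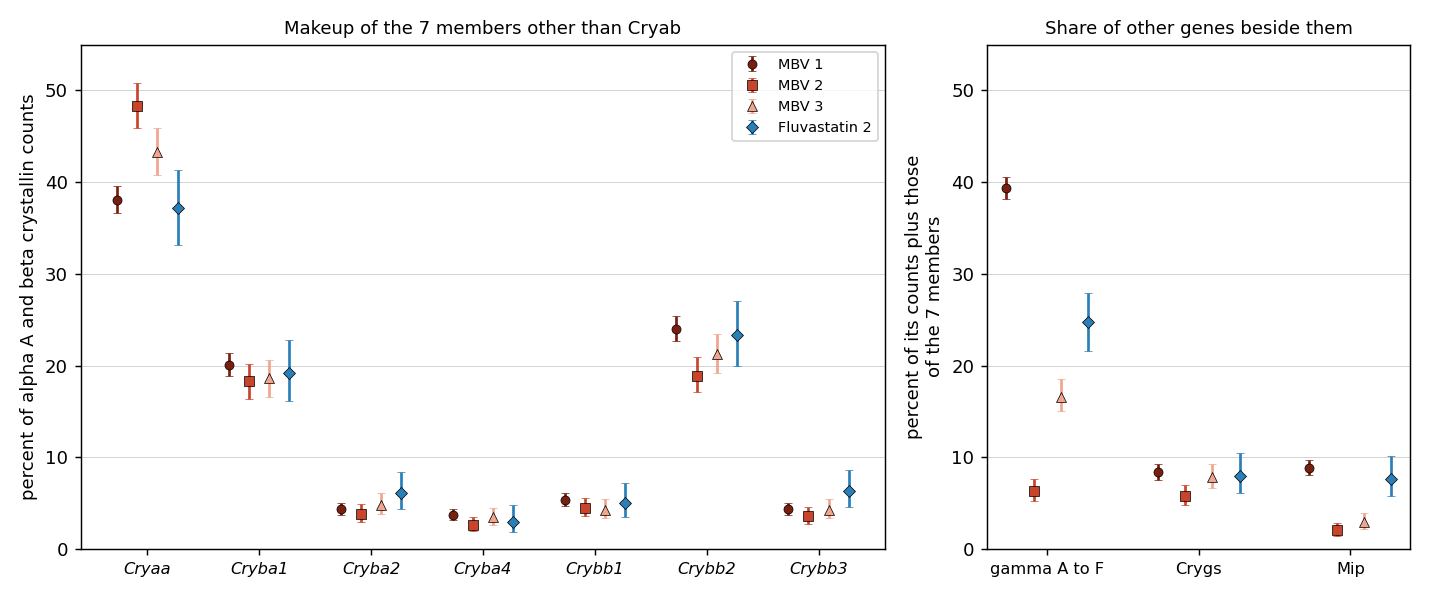
Left, percent of the summed alpha A and beta crystallin counts taken by each of the 7 genes in the 3 MBV libraries and fluvastatin replicate 2; right, percent taken by gamma A to F, Crygs or Mip of their own counts plus those of the 7 genes. Points are libraries and bars are 95% Wilson intervals; gamma A to F range from 6.35% to 39.4% in the MBV libraries while Cryba1 stays between 18.3% and 20.1%.

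Lens genes other than crystallins showed the same unevenness. Of 12, 7 were called higher with MBV than with PBS (among them Bfsp1, Grifin, Lctl, Lgsn, Lim2 and Mip), against 12.0% of genes tested. The median log2 fold change was 2.86, or 2.27 with Dnase2b and Birc7, at 0 with PBS, put at the bound of 3 counts over the group. Without MBV replicate 1 a single gene, Mip, was called, beside 8.36% of genes tested. The count was 1, 0 and 1 without PBS replicates 1, 2 and 3. Mip, the aquaporin of lens fibres, had 0.585, 0.614 and 0.456 CPM with PBS and 14.1, 1.51 and 1.88 with MBV, so replicate 1 was 9.33 and 7.48 times the others. Lgsn, which encodes lengsin of the lens fibre, had 11, 0.457 and 1.11 CPM with MBV, and Lim2, a lens fibre membrane protein, had 96, 4 and 5 counts.

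Mip made up 8.86% (95% Wilson interval 8.05 to 9.74) of the counts of Mip and the 7 genes in MBV replicate 1, 2.03% (1.45 to 2.83) in replicate 2 and 2.95% (2.20 to 3.93) in replicate 3. In fluvastatin replicate 2 it was 7.68% (5.79 to 10.1) and in PBS replicate 1 it was 9.78% (6.28 to 14.9). The share was lower in MBV replicates 2 and 3 than in MBV replicate 1, with intervals that do not overlap. It was 23.7% and 32.4% in PBS replicates 2 and 3, and 20.8% and 35.6% in fluvastatin replicates 1 and 3. Mip had 18, 18 and 12 counts in PBS replicates 1 to 3 and 15, 45 and 16 in the fluvastatin libraries. Mip thus did not fall with the 7 genes across the PBS libraries, so the PBS and fluvastatin shares are not compared with those of MBV. Summed over 11 lens genes without Lenep, which had 123 to 285 counts in every library, the level was 2.47 to 3.31 CPM in the PBS libraries, 2.18 to 4.90 in the fluvastatin libraries and 42.8, 5.25 and 6.37 in the MBV libraries. Whether lens material took part in the crystallin values of any library was not tested.

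**Figure D3:**
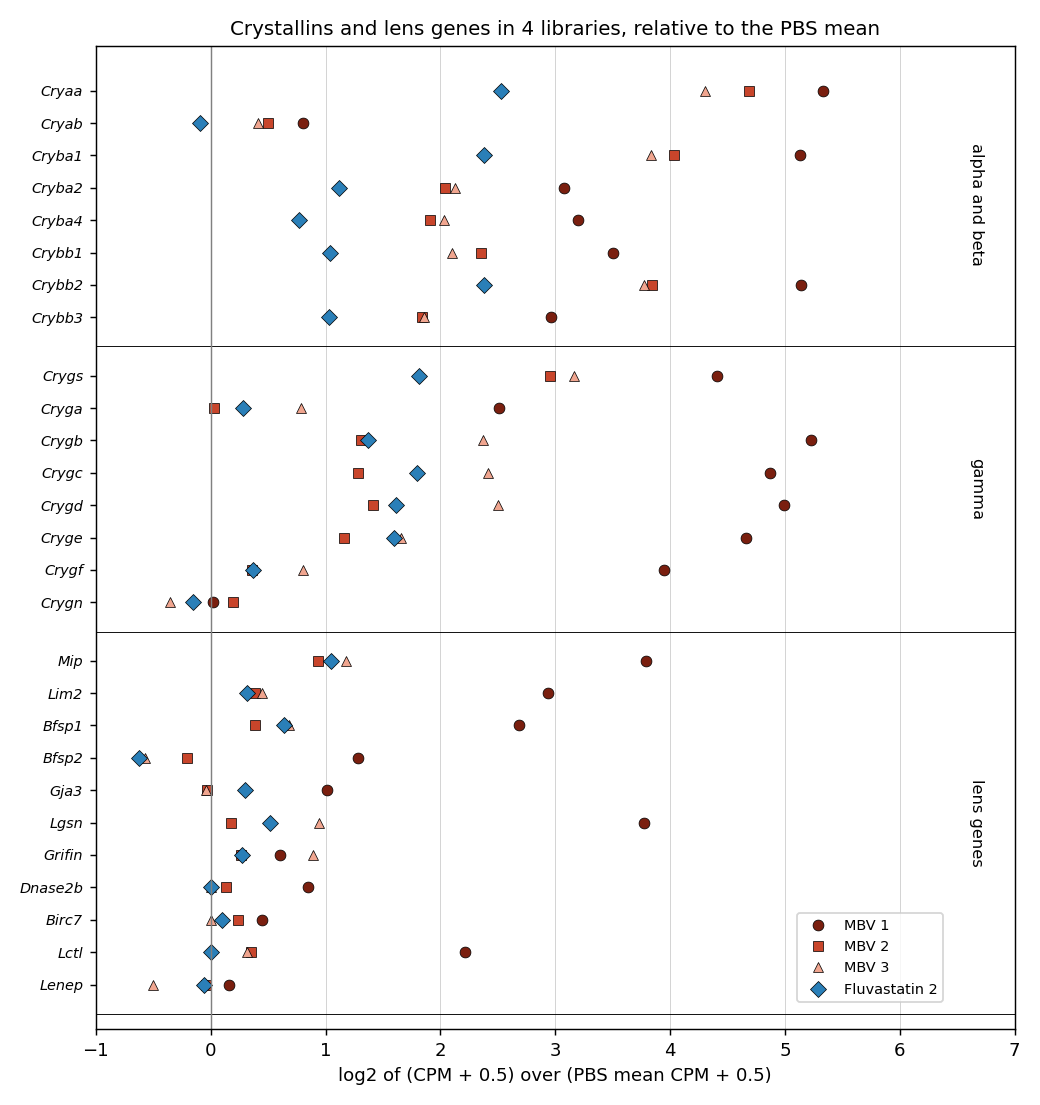
Log2 ratio of CPM + 0.5 to the PBS mean CPM + 0.5 for the alpha and beta crystallins, the gamma crystallins and 11 lens genes, in the 3 MBV libraries and fluvastatin replicate 2. For the 7 low genes the 3 MBV libraries lie between 1.84 and 5.33, whereas for gamma A to F and for Mip, Lim2 and Lgsn replicate 1 lies far to the right of the others.

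Transcription factors that act in the lens were counted next. Of 10 factors, 1 was called higher with MBV than with PBS (12.0% of genes tested were), Mab21l1, at a log2 fold change of 0.24 ± 0.05 (SE), which was also called higher with fluvastatin at 0.26 ± 0.04 (9.36% of genes tested). Pax6, the regulator of eye development, differed by 0.04 ± 0.04 with MBV, Maf by 0.09 ± 0.08 and Prox1 by 0.00 ± 0.09 (SE). These factors are also expressed by retinal cells, at 566 to 867 counts for Maf and 8465 to 13388 for Prox1. Pitx3 and Foxe3, lens factors, had 0 to 2 counts in every library. Foxe3 had 0 in each PBS and fluvastatin library and 2, 1 and 1 with MBV. Sox1 had 0 counts in each PBS library, 1, 3 and 0 with fluvastatin and 10, 0 and 2 with MBV. It did not pass the test for MBV against PBS (edgeR FDR 0.0953).

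The last family counted was the small heat shock proteins related to the alpha crystallins. Of 7, 0 were called higher with MBV and 1 lower (14.1% of genes tested were called lower), Hspb6, at 46.4, 52.1 and 47.3 CPM against 56.1, 62.4 and 63.0 with PBS and a log2 fold change of -0.33 ± 0.06 (SE). Hspb1, a widely expressed chaperone of this family, differed by 0.24 ± 0.15 and did not pass the test. Neither did Hspb8, at 0.20 ± 0.15 (SE). With fluvastatin edgeR called 0 of the 7 (19.6% of genes tested), with the smallest FDR at 0.128 (Hspb6). DESeq2 also called 0, but it gives no FDR to genes that its filter leaves out, Hspb2 among them.

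Markers of other tissues near the retina moved as follows with MBV against PBS. Of 6 pigment cell markers, 5 were called lower (14.1% of genes tested), with a median log2 fold change of -2.31, and the same number were called lower with fluvastatin, at -1.86 (10.2% of genes tested). The remaining marker, Rpe65 of the pigment epithelium, did not go down. It differed by 0.36 ± 0.385 with MBV and 0.51 ± 0.212 with fluvastatin (SE), without passing the test. Of 4 keratins of the corneal epithelium, 3 were called lower with MBV and 0 with fluvastatin, where the smallest edgeR FDR was 0.0731 (Krt15). Of 4 globin genes, 3 were called higher in each treatment, where 12.0% (MBV) and 9.36% (fluvastatin) of genes tested were. The medians of these lists had the same direction in both treatments, and the 7 low crystallins were high with MBV and in 1 fluvastatin library. The part of these cells in the crystallin values was not tested.

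The genes whose profile over the 9 libraries was closest to the mean profile of the 8 were all gamma crystallins. The measure was the root mean square difference of centred log2(CPM + 0.5), over 15048 genes with a mean of at least 10 counts. It was 0.25 for Crygs, 0.61 for Crygd, 0.65 for Crygc, 0.71 for Crygb and 0.72 for Cryge. The members themselves lay at 0.21 (Crybb1) to 1.19 (Cryab) from their own mean, so Crygs was nearer than every member but Crybb1. Without MBV replicate 1 the same 5 genes came first. For Cryab alone the nearest genes were Bik at 0.11 and Frmd6, Tbc1d31, Rspo2 and H2-Q7 at 0.14, and without MBV replicate 1 none of these was among the nearest 5, so its neighbours rest on that library.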

How the data were processed

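RNA-seq was read from 4 tables that the authors deposited, each with 25655 genes. The authors prepared libraries from total RNA of whole retina (TruSeq Total RNA), sequenced them as paired reads and aligned them to GRCm39 with CLC Genomics Workbench. The values used are raw counts per gene as the authors deposited them, without normalization. Columns of the authors' own comparisons (group mean, log2 fold change, fold change, p-value, FDR and Bonferroni) were not used. The 6 count columns without a library name were used in no step.

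Counts were tested in R 4.3.3 with edgeR 4.0.16 (TMM, quasi-likelihood test, Benjamini-Hochberg over all genes counted at least 1 time in the 6 libraries of a comparison, FDR under 0.05), with 2 groups in each fit, and with DESeq2 1.42.0 as an alternative. On simulated counts the procedure called some unchanged genes, at more than the nominal rate. The coefficient of variation between replicates was 7.78% to 10.1%. Tables were made in Python 3.11.15 with pandas 2.3.3 and scipy 1.17.1. Lengths are from GENCODE mouse release 39 exons.

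The members, gene lists and tests were chosen with earlier results of these data known. Named genes were the members, the called genes of each list, Crygs, Crygn and Hspb2, and the 5 genes nearest to the members and to Cryab. Genes outside this rule, such as Pax6, Maf, Prox1, Pitx3, Foxe3, Sox1, Hspb1, Hspb8, Nufip2, Lenep, Dnase2b, Birc7, Rpe65, Cd74, Ccr2, S100a9 and Cxcr2, were named after their values were seen. Results for some listed genes are not reported here.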

Additional observations from a re-analysis of the deposited data

How the results depend on the processing

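For MBV against PBS, the contrast on which the 8 alpha and beta crystallins had been picked, the log2 fold changes ran from 0.45 (Cryab without MBV replicate 1) to 7.58 (Cryaa without PBS replicate 1) over 11 alternatives, and the calls say nothing of stability. With a fold of at least 2, 7 were called, without Cryab. Leaving out 1 library at a time, 8 to 8 of them were called for MBV against PBS, 0 to 1 for fluvastatin against PBS (1, Cryba1, without fluvastatin replicate 1) and 0 to 8 for MBV against fluvastatin (8 without MBV replicate 3, 1 without fluvastatin replicate 2). In the last comparison DESeq2 called 4 and a fit of all 9 libraries 1. Several PBS values rest on 1 to 3 counts.

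Genes called numbered 3687 for fluvastatin and 4937 for MBV against PBS and 11 for MBV against fluvastatin. With a fold of at least 2 they were 220, 369 and 2. MBV against fluvastatin gave 122 with DESeq2, 5 with a minimum of 10 counts in 2 libraries and 38 in the fit of all 9 libraries. Without 1 library the ranges were 1726 (without PBS replicate 1) to 4402, 2711 (without PBS replicate 1) to 5664 and 0 (without MBV replicate 1) to 197 (without MBV replicate 3). Fluvastatin against PBS gave 2113 without fluvastatin replicate 2. MBV against fluvastatin gave 22 without fluvastatin replicate 1 and 2 without fluvastatin replicate 2 or 3. The cause was not tested.

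Signs of the log2 fold change turned mainly for fluvastatin against PBS. Leaving out 1 library at a time, the lowest values came without fluvastatin replicate 2 and the highest mostly without PBS replicate 1: Cryaa -1.11 to 3.82, Cryba2 -1.23 to 1.25, Cryba4 -0.03 to 2.39, Crybb1 -0.34 to 2.34, Crybb2 -1.99 to 2.31, Crygb -0.30 to 2.59, Crygc -0.81 to 2.15, Crygd -0.60 to 3.33, Crygf -0.62 to 4.14, Crygs -0.24 to 3.57, Lim2 -2.57 to 3.59, Grifin -1.54 to 0.71 and Lgsn -0.86 to 0.44. Cryab ran from -0.13 to 0.01. For MBV against PBS, Bfsp2 ran from -0.60 (without MBV replicate 1) to 0.97, Crygn from -0.80 to 0.38 and Hspb2 from -0.23 to 0.14, with 0.01 in DESeq2. For MBV against fluvastatin, Mab21l1 ran from -0.04 to 0.05. None of these had passed the test in the comparison concerned.

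The replicate numbers did not pair the samples: the correlation of same-numbered deviations from the group means was -0.0299 to 0.159 for PBS and fluvastatin, -0.0131 to 0.0391 for PBS and MBV and -0.366 to 0.0205 for fluvastatin and MBV, and 2, 0 and 0 of 6 samples correlated best with their own number. A fit with the replicate number as a block called 3727, 3876 and 0 genes, and 0, 8 and 0 of the 8 crystallins, for fluvastatin and MBV against PBS and MBV against fluvastatin. In the block fit Lgsn was at 0.00 for fluvastatin against PBS. The order per length with the lengths implied by the deposited tables was not run, and the canonical transcript length was used in its place, chosen after seeing the data, as were the list medians at the bound of 3 counts. Ranks per length then stayed for 3 genes with PBS, 1 with fluvastatin and 4 with MBV.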

Other observations

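Other genes that carry a crystallin name, chosen after their values were seen, did not follow the 8 genes. Cryl1, a dehydrogenase of the lens of some mammals, was called lower in both treatments, at 4.0, 3.96 and 4.18 CPM in the PBS libraries, 2.47, 2.28 and 2.33 in the fluvastatin libraries and 2.45, 2.19 and 2.18 in the MBV libraries. Its log2 fold change was -0.78 ± 0.14 with fluvastatin and -0.84 ± 0.15 with MBV (SE, n = 3 each; edgeR FDR 0.00476 and 0.00365), and both values share the PBS libraries. Crym, a thyroid hormone binding protein, differed by 0.13 ± 0.23 and -0.09 ± 0.25, and Cryz, a quinone oxidoreductase, by 0.02 ± 0.08 and 0.01 ± 0.09 (SE), without passing the test. Crybg1 and Crybg3, which hold the fold of the beta and gamma crystallins in larger proteins, differed by 0.07 ± 0.16 and -0.10 ± 0.06 with fluvastatin and -0.01 ± 0.17 and 0.00 ± 0.08 with MBV.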
